A study of Arabidopsis thaliana with 3 samples.

Results

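Heat shock genes encode the chaperones that keep proteins folded and the transcription factors that switch those chaperones on. The set described here was chosen by a list of 35 Arabidopsis thaliana locus codes covering HSP70, HSP90, HSP100 and small heat shock proteins, heat shock factors and co-factors. Of the 35 genes, 34 had named probes, among 24658 genes with named probes in all, and HSP70-2 (AT5G02490) was not analysed here. RNA from rosettes of lsm1a lsm1b, a double mutant, was hybridised together with RNA of Col-0, the wild type, on 3 two-colour arrays, each labelled a biological replicate. LSM1A and LSM1B encode the Arabidopsis LSM1 subunit, which defines the cytoplasmic LSM1-7 ring that promotes decapping and decay of messenger RNA. Per the labels, mutant RNA carried Cy3 on arrays 1 and 3 and Cy5 on array 2.

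The mutant is given only as lsm1a lsm1b, with no allele names in the labels, and Col-0 is its control. Both genotypes were grown alike, but the labels differ on how: the sample characteristics give 2-week-old rosettes and the growth protocol 16 h light and 8 h dark at 22 °C, while the sample descriptions give 3-week-old plants after 1 day at 4 °C. Every value is the authors' normalized log2 ratio, read as lsm1a lsm1b over Col-0. That direction is likely, not certain. Each sample lists the mutant as channel 1 and calls Col-0 the control, but each sample title names Col-0 before lsm1a lsm1b. Array 2 correlated above 0 with arrays 1 and 3 (Pearson r = 0.416 and 0.411 over probes) although its dyes were swapped. The arrays were therefore read as turned to the same orientation, which the sources used do not state. Dye bias of probes in unturned ratios could also correlate above 0, and this was not tested. The correlation also does not tell which genotype is on top. Were the ratios Col-0 over mutant, each direction below would turn and the sizes would stay. Array 2 stood apart from the others: over genes it correlated with arrays 1 and 3 at r = 0.427 and 0.452, while arrays 1 and 3 correlated at 0.745. In whole rosettes, fewer cells of a type and less RNA per cell cannot be told apart. The arrays held ratios only, so the tissue itself could not be checked by levels. The leaf genes RBCS1A and CAB1 stood at -0.71 ± 0.78 and -1.51 ± 1.22 (mean ± SD of 3 arrays). RBCS1A was mixed in sign, at -0.89, 0.14 and -1.39 on arrays 1, 2 and 3, with probe means from -1.10 to 0.01. CAB1 stood at -1.42, -0.34 and -2.78, so both were nearest to 0 on array 2. The 6 flower, root and seed markers had means between -0.13 and 0.30. The part of any difference in tissue makeup in the results below was not tested.

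In unstressed plants, the class A1 heat shock factors are present but held inactive by HSP70 and HSP90. When unfolded proteins accumulate, these factors are released and switch on HSFA2, HSFA7A and other secondary factors, HSFB1, MBF1C and the heat-inducible chaperones. HSP70 binds exposed hydrophobic stretches, HSP90 matures signalling proteins, HSP101 pulls aggregates apart, and small heat shock proteins hold unfolded proteins ready for refolding.

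In the mutant, the highest mean ratios were those of HSP70-4, the co-factor MBF1C, the factor HSFA7A, the small heat shock protein HSP17.8, HSP90.1 and the factor HSFA2, in this order. HSP90.2, HSC70-1 and the small heat shock protein HSP18.2 had the lowest means, and they alone of the 34 genes were below 0 on all 3 arrays. One gene passed the test: MBF1C, measured by 1 probe, rose 2.49-fold. The test was limma's moderated test of the mean ratio against 0, two-sided, with p-values adjusted by Benjamini and Hochberg's method across all 24658 genes, called below 0.05. By this test 1 of 34 heat shock genes was called, against 1.21% of all genes, and it was higher. The shares of all genes called higher and lower were 0.625% and 0.584%. One gene of 34 is too few to read against these shares. At an unadjusted p under 0.05 in limma, 19 heat shock genes were called, against 20.1% of all genes. Of these, 16 were higher and 3 lower, against 10.6% and 9.48% of all genes, so the lower count is near the background. Ratios were above 0 on all 3 arrays for 20 heat shock genes and below 0 on all 3 for 3, against 19.7% and 18.0% of all genes. Of the 34 genes, 10 were above 0 on all 3 arrays with a mean of at least 0.5, against 5.6% of all genes, and 3 were below 0 on all 3 with a mean of at most -0.5, against 4.74%. The median ratio of the 34 genes was 0.33, with 0.34, 0.30 and 0.22 on arrays 1, 2 and 3, beside 0.01 for all genes.

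**Figure D1:**
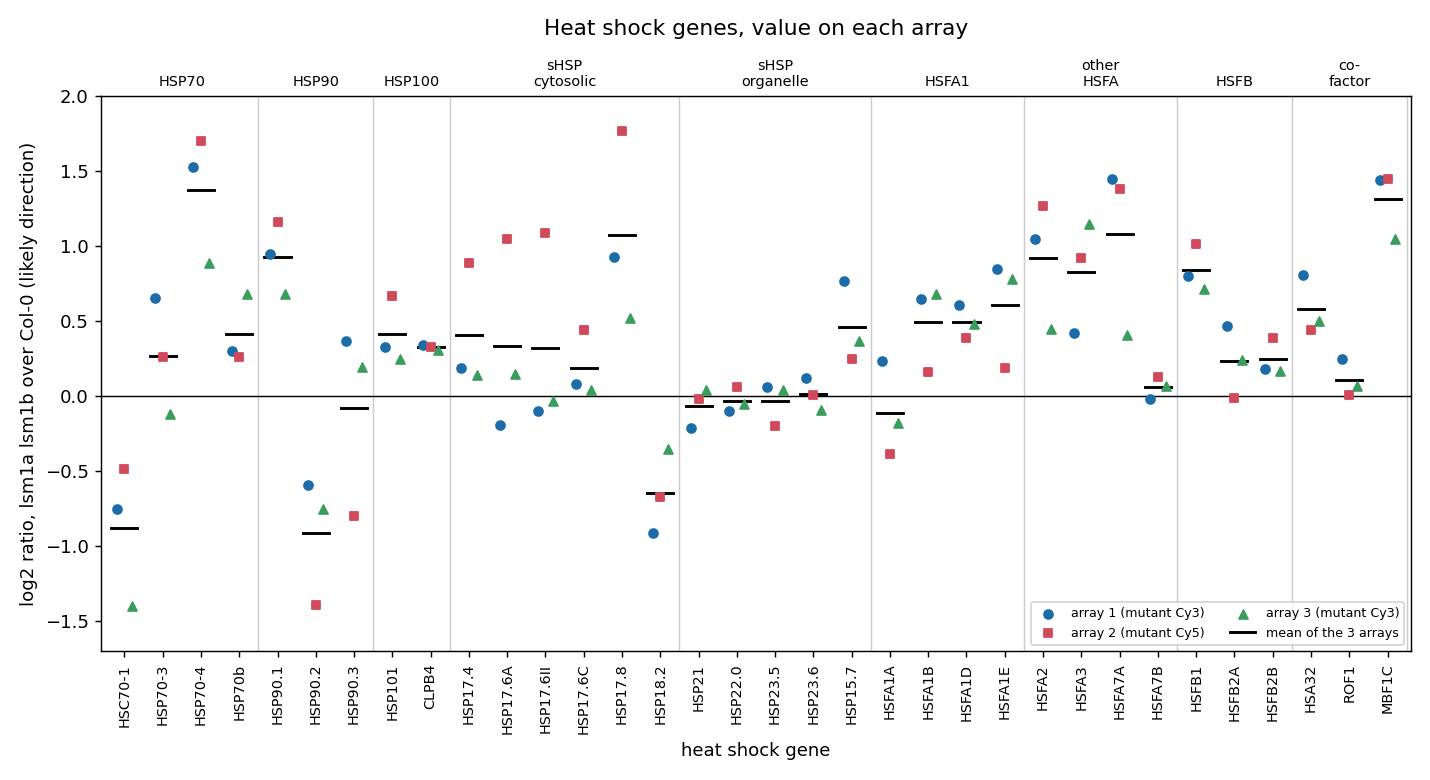
Log2 ratio of lsm1a lsm1b over Col-0 for each of the 34 measured heat shock genes, grouped by class, with a symbol for each of the 3 arrays and a bar for their mean. HSP70-4, MBF1C, HSFA7A and HSP17.8 have means above 1, and HSC70-1, HSP90.2 and HSP18.2 are below 0 on all 3 arrays.

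Among the co-factors, MBF1C (AT3G24500), a transcriptional co-activator needed for tolerance of heat, stood at 1.44, 1.45 and 1.05 on arrays 1, 2 and 3. Its mean of 1.31 ± 0.23 had a 95% confidence interval of 0.997 to 1.63 (limma adjusted p = 0.0412), and 0.714% of all genes had a mean at least as high. The call needs all 3 arrays: without array 1, 2 or 3 the limma adjusted p was 0.295, 0.0737 and 0.152, and with a dye term it was 0.0705. In each of these fits 0 of the 24658 genes passed limma's adjusted test, while unadjusted p-values fell under 0.05 for 2805, 7327 and 2544 genes in the fits lacking array 1, 2 and 3 and for 6384 genes in the dye fit. HSA32 (AT4G21320), a heat-induced protein that prolongs acquired heat tolerance, stood at 0.81, 0.44 and 0.51, and its 2 probes gave means of 0.68 and 0.49. Its mean of 0.59 ± 0.20 did not pass (limma adjusted p = 0.0872). ROF1 (AT3G25230), a peptidyl-prolyl isomerase that binds HSP90, stood at 0.25, 0.01 and 0.07, all close to 0.

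The 4 secondary class A factors had the highest median of the 9 classes, 0.88. HSFA2 (AT2G26150), the factor that sustains the heat response, stood at 1.05, 1.27 and 0.45, highest on array 2 and lowest on array 3. HSFA7A (AT3G51910), a heat-induced relative of HSFA2, stood at 1.45, 1.38 and 0.41 and likewise was lowest on array 3. HSFA3 (AT5G03720), which acts downstream of DREB2A in drought and heat, differed in order, with 0.42, 0.92 and 1.15. HSFA7B (AT3G63350), the closest relative of HSFA7A, stood at -0.02, 0.13 and 0.07. The difference between HSFA7A and HSFA7B was 1.47, 1.25 and 0.34 on the log2 scale on arrays 1, 2 and 3. These 2 genes had the highest and lowest mean of the class, so a positive mean difference was fixed by the choice of pair. The means of HSFA2, HSFA3 and HSFA7A, 0.92, 0.83 and 1.08, did not pass (limma adjusted p = 0.0921, 0.0926 and 0.108). All 4 genes of the class were measured by 1 probe each.

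The class A1 factors, which start the response, were also mostly above 0, with a median of 0.50. HSFA1E (AT3G02990) stood at 0.85, 0.19 and 0.78, HSFA1B (AT5G16820) at 0.65, 0.16 and 0.69, and HSFA1D (AT1G32330) at 0.61, 0.39 and 0.48. HSFA1A (AT4G17750) differed, at 0.24, -0.39 and -0.18, and its 2 probes had means of 0.05 and -0.27. All 4 were lowest on array 2, the array with the dyes swapped, where 38.4% of all genes had their lowest value. None passed, and HSFA1D came closest, with a mean of 0.49 ± 0.11 (limma adjusted p = 0.0849).

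Of the class B factors, which lack the activator motif of class A and mostly repress, HSFB1 stood apart. HSFB1 (AT4G36990), also known as HSF4 or TBF1, carries upstream open reading frames and takes part in both heat and immune responses. It stood at 0.80, 1.01 and 0.71, and its 3 probes agreed, with means from 0.83 to 0.86. Its mean of 0.84 ± 0.15, a 1.79-fold ratio, lay just outside the threshold (limma adjusted p = 0.0503). HSFB2A (AT5G62020) stood at 0.47, -0.01 and 0.24 and HSFB2B (AT4G11660) at 0.18, 0.39 and 0.17, both nearer to 0 than HSFB1 on every array.

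Among the HSP70 genes, HSP70-4 and HSC70-1 ran in opposite directions. HSP70-4 (AT3G12580), a heat-inducible cytosolic HSP70 measured by 1 probe, stood at 1.53, 1.70 and 0.89. Its mean was the highest of all 34 genes (1.37 ± 0.43, a 2.59-fold ratio, limma adjusted p = 0.0591). HSC70-1 (AT5G02500), the abundant constitutive cytosolic HSP70, stood at -0.75, -0.48 and -1.40 (mean -0.88 ± 0.47; limma adjusted p = 0.113). Its 8 probes all had means below 0, from -1.14 to -0.53. Both genes were lowest on array 3, and their difference was almost the same on each array, at 2.28, 2.18 and 2.29. This difference, 2.25 ± 0.06, was not tested because the pair was picked after its values were seen. The small SD holds for the average of the HSC70-1 probes. Single probes varied in their order over arrays, with -0.48, -0.59 and -0.52 for 1 probe and -1.49, 0.01 and -1.93 for another.

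HSP70-3 (AT3G09440), another cytosolic HSP70, stood at 0.65, 0.26 and -0.12, and HSP70b (AT1G16030), which is strongly heat-inducible, at 0.30, 0.26 and 0.68. Their means were 0.27 and 0.41, both under that of HSP70-4. The cytosolic HSP70 genes are close copies, and HSP70-2 is the immediate neighbour of HSC70-1, so their probes can share signal.

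HSP90.1 and HSP90.2 also ran in opposite directions, while the other cytosolic HSP90 genes were mixed in sign over arrays. HSP90.1 (AT5G52640), the heat-inducible cytosolic HSP90, stood at 0.95, 1.16 and 0.68 (mean 0.93 ± 0.24, a 1.91-fold ratio; limma adjusted p = 0.0580), with probe means of 0.59 and 1.27. HSP90.2 (AT5G56030; HSP81-2 in the gene table), a constitutive HSP90 that stabilises immune receptors, stood at -0.60, -1.39 and -0.76 (mean -0.91 ± 0.42; limma adjusted p = 0.0923). The 2 probes of HSP90.2 disagreed: one gave -0.91, -2.78 and -1.19, and the other -0.28, 0 and -0.32. HSP90.3 (AT5G56010), which lies 1 gene away from HSP90.2 and is nearly identical to it, stood at 0.37, -0.80 and 0.19, and its 3 probe means ran from -0.65 to 0.42. On array 2 every probe of HSP90.3 was below 0, while on array 1 all 3 were above 0. HSP90.4 (AT5G56000), the remaining cytosolic copy, stood at 0.34, -0.26 and 0.08. HSP90.1 exceeded HSP90.2 by 1.55, 2.55 and 1.44. As HSP90.1 was above 0 and HSP90.2 below 0 on each array, the sign of this difference was fixed by the choice of pair. The median of the 3 HSP90 genes was -0.08, but it was -0.30, 0.28 and -0.21 without array 1, 2 and 3, so neither its size nor its sign was settled.

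**Figure D2:**
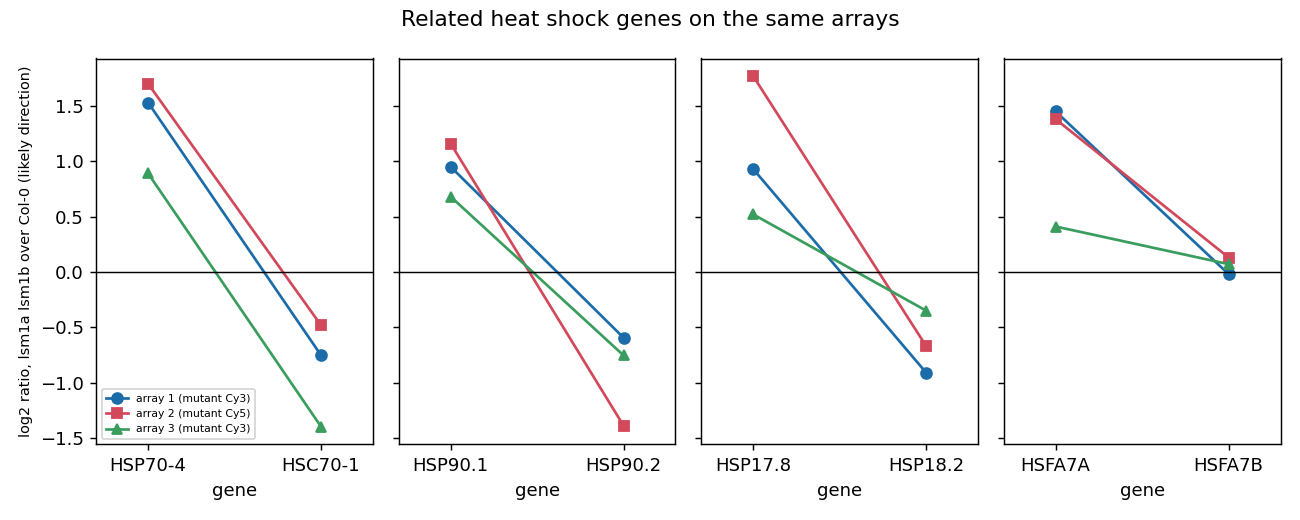
Log2 ratios on the 3 arrays for 4 pairs of related heat shock genes, with a line joining the values of one array. HSP70-4 lies above HSC70-1 by between 2.18 and 2.29 on each array, and the other pairs differ in the same order on every array but by more variable amounts. Each pair joins the genes with the highest and lowest mean of a class, so the order of the means was fixed by the choice.

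Both HSP100 genes were above 0 on all 3 arrays. HSP101 (AT1G74310), the cytosolic disaggregase needed for acquired heat tolerance, stood at 0.33, 0.67 and 0.25, and CLPB4 (AT2G25140), its mitochondrial relative, at 0.34, 0.33 and 0.31. CLPB4 had the smallest spread of the 34 genes, with an SD of 0.02, and a mean of 0.33. Neither passed (limma adjusted p = 0.160 and 0.128).

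The cytosolic small heat shock protein genes differed between arrays more than the other classes except HSP90. Their median was -0.01, 0.97 and 0.09 on arrays 1, 2 and 3. Array 2 held the highest value for 5 of the 6, against 42.1% of all genes. HSP17.6A (AT5G12030) stood at -0.19, 1.05 and 0.15 and HSP17.6II (AT5G12020) at -0.10, 1.09 and -0.03. These class II genes are immediate neighbours and close copies, so their probes can share signal. HSP17.4 (AT3G46230) stood at 0.19, 0.89 and 0.14 and HSP17.6C (AT1G53540) at 0.08, 0.44 and 0.04, both class I genes with the same order. Array 2 is both the only array with mutant RNA in Cy5 and a separate biological replicate, so dye and plants cannot be told apart there. The median of this class over the 3 arrays was 0.33, and it was 0.52, 0.02 and 0.46 without array 1, 2 and 3.

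The remaining 2 class I genes had larger ratios of opposite sign. HSP17.8 (AT1G07400) stood at 0.93, 1.77 and 0.52 (mean 1.07 ± 0.64, a 2.10-fold ratio; limma adjusted p = 0.124). HSP18.2 (AT5G59720) stood at -0.91, -0.67 and -0.35 (mean -0.64 ± 0.28; limma adjusted p = 0.100) and was the only small heat shock protein gene below 0 on all 3 arrays. The difference between HSP17.8 and HSP18.2 was 1.84, 2.44 and 0.87, with its sign fixed by the choice of pair. Each was measured by 1 probe, so for HSP18.2 less transcript and weaker binding of the mutant's RNA to that probe cannot be told apart. AT1G59860, a close relative of HSP17.8 outside the list, stood at 1.44, 1.84 and 0.70, in the same order over arrays as HSP17.8. It too was measured by 1 probe, and the probes of such close relatives can share signal.

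The small heat shock proteins of organelles were near 0 except one. HSP21 of the chloroplast (AT4G27670) stood at -0.21, -0.02 and 0.04, HSP22.0 of the endoplasmic reticulum (AT4G10250) at -0.10, 0.06 and -0.05. The mitochondrial HSP23.5 (AT5G51440) and HSP23.6 (AT4G25200) had means of -0.03 and 0.01. The 95% confidence intervals of these 4 means lay between -0.31 and 0.25. Without intensities, it is unknown whether these genes gave signal above background. HSP15.7 of the peroxisome (AT5G37670) stood at 0.77, 0.25 and 0.37, above 0 on each array, with a mean of 0.46 that did not pass (limma adjusted p = 0.162).

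**Figure D3:**
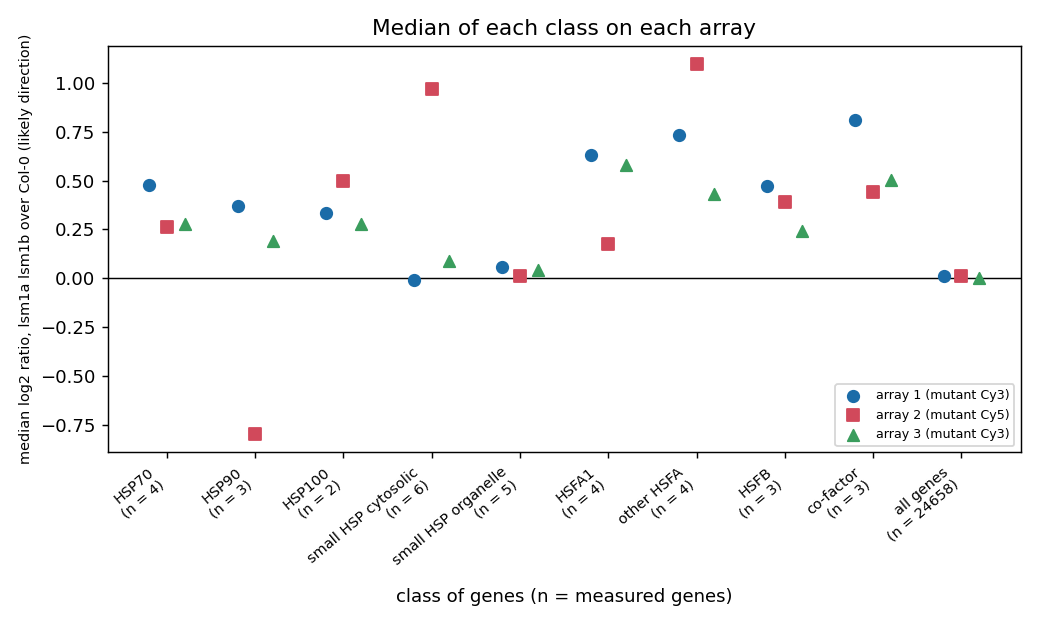
Median log2 ratio of each class on each of the 3 arrays, beside the median of all 24658 genes. The secondary class A factors were above 0.42 on every array, the cytosolic small heat shock proteins were high on array 2 only, at 0.97, and the HSP90 median of array 2 was -0.80.

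By class, ratios above 0 were found in more of the listed factor genes than of the listed chaperone genes. Of 11 heat shock factor genes, 10 had a mean above 0 and 8 were above 0 on all 3 arrays, with a median of 0.50. Of 11 small heat shock protein genes, 7 had a mean above 0 and 4 were above 0 on all 3 arrays, with a median of 0.19. Of the 9 HSP70, HSP90 and HSP100 genes, 6 had a mean above 0 and 5 were above 0 on all 3 arrays, with a median of 0.33. For all genes these shares were 51.5% and 19.7%. The factors had the highest median of these 3 groups on every array, at 0.61, 0.39 and 0.45, against 0.06, 0.25 and 0.04 for small heat shock proteins and 0.34, 0.26 and 0.25 for the larger chaperones. Genes of a class are not replicates, and no test was made of the difference between classes. The order holds for the listed genes only. Of 9 other measured heat shock factor genes, 7 had a mean above 0, with a median of 0.05. On all 3 arrays, 2 of those 9 were above 0 and 2 below 0.

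**Figure D4:**
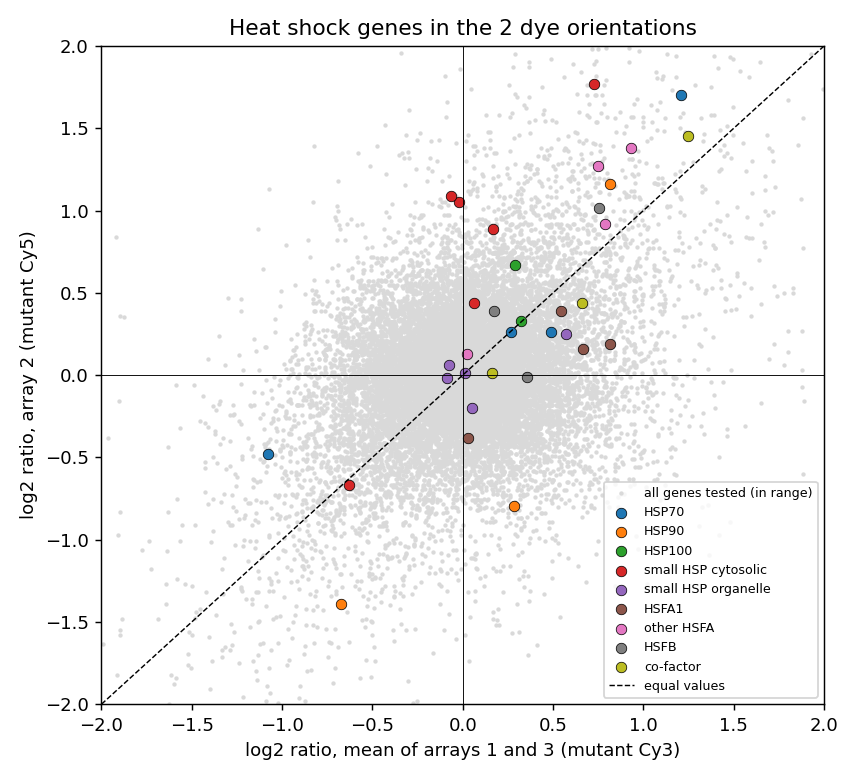
Log2 ratio on array 2, with mutant RNA in Cy5, against the mean of arrays 1 and 3, with mutant RNA in Cy3, for the 34 heat shock genes by class over all genes (grey; axes cover -2 to 2). MBF1C, HSP70-4, HSP90.1 and the secondary class A factors HSFA2, HSFA3 and HSFA7A are above 0 in both orientations, while the class II small heat shock protein genes are high on array 2 and near 0 on the others.

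Further genes of the protein folding network were described from lists of related loci, and 0 of their 49 measured members passed limma's adjusted test, against 1.21% of all genes. At an unadjusted p under 0.05 in limma, 9 of the 49 were higher and 5 lower, against 10.6% and 9.48% of all genes, so the lower count is near the background. Of 9 other heat shock factor genes, 2 were above 0 and 2 below 0 on all 3 arrays, near the 19.7% and 18.0% of all genes, with a median of 0.05. HSFA8 (AT1G67970) had the highest mean, 0.77, and HSFA9 (AT5G54070), a seed factor, the lowest, -0.15. Of 6 other small heat shock protein genes, 2 were above 0 on all 3 arrays, against 19.7% of all genes, with AT1G59860 highest at 1.33 ± 0.58 (limma adjusted p = 0.0814) and AT2G19310 lowest at -0.24.

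Of 12 measured chaperones of plastids and mitochondria, 10 had a mean below 0, against 48.0% of all genes, and 4 were below 0 on all 3 arrays, against 18.0%, with a median of -0.19 and a range of -0.35 for CPN60B, a plastid chaperonin, to 0.13 for CLPB3, the plastid HSP100. Of 16 further cytosolic chaperones and co-chaperones, 7 were above 0 and 3 below 0 on all 3 arrays, against 19.7% and 18.0% of all genes, with a median of 0.17. The 3 lower genes are at the background share. The J-protein gene AT2G20560 was highest, at 1.23, 1.31 and 0.62 (mean 1.05; limma adjusted p = 0.0717). AT5G48570 (ROF2), the closest relative of ROF1 and like it a partner of HSP90, was lowest, at -1.17, -1.06 and -0.47 (mean -0.90, limma adjusted p = 0.0855). ROF1 itself stayed close to 0, with a mean of 0.11. Of 6 other heat-inducible genes, 0 were above 0 and 0 below 0 on all 3 arrays, against 19.7% and 18.0% of all genes. The 6 genes are too few to read against these shares. Their means ran from -0.25 for GolS1, which starts raffinose synthesis, to 0.37 for ATERDJ3A, a J-protein of the endoplasmic reticulum. DREB2A, the factor upstream of HSFA3, stood at -0.24, -0.06 and 0.37 with a mean of 0.02.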

How the data were processed

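The values are normalized log2 ratios deposited by the authors, 1 per probe and array, to 2 decimals. Per the submitters' processing notes limma was used, with no version. How background and dyes were corrected, the log base and the sign were not given in the sources used. Base 2, limma's own, was assumed. Of 43656 rows, 55 control features were left out; of the other 43601 probes, 34342 had 1 gene symbol in the platform annotation, 0 several and 9259 none. RefSeq's gene table of TAIR10.1 named 32225 probes through their accession and 2053 through their symbol, giving 24658 genes; 39 with conflicting matches and 25 without a match were unnamed. Probes of a gene were averaged per array. Column medians were 0, 0.01 and -0.01, and precision is limited by having 3 arrays.

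The test was limma's (version 3.58.1, R 4.3.3) of each gene's mean ratio against 0 (lmFit, eBayes, intercept only). The fit was also run on simulated ratios with independent noise on each array, which hold no dye effect. Errors are SD over 3 arrays. The members and lists were chosen with earlier results of these data known. Values on every array are given for members with 1 sign on all 3 arrays and an absolute mean of at least 0.5, for those past the threshold and for the highest and lowest of each class, and other members were added where their class is described; of further lists, the highest and lowest means are named. Genes named beyond this are HSP90.4 and DREB2A. Alternatives were each array left out, a dye term, scaling, centring, the median of probes, leaving out genes whose probe means lie over 1 apart, and robust variances. The planned search of promoter sequences was not made.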

Additional observations from a re-analysis of the deposited data

How the results depend on the processing

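The main fit was paired within arrays, because each ratio sets both genotypes on an array against each other. No further pairing was possible because the arrays form 1 group. Over all genes 298 passed; 180 passed with robust variances, 76 after scaling between arrays and 0 with the dye term. Leaving out each array gave 0 to 0 genes, with 2544 to 7327 at an unadjusted p under 0.05 in limma (6384 with the dye term). For heat shock genes the count of 1 became 0 with the dye term and 0 without each array, and 12 to 20 had an unadjusted p under 0.05 (25 with the dye term); fewer arrays or residual degrees of freedom enter these fits. The median of the heat shock genes was 0.39 with the dye term and 0.29 to 0.42 with an array left out. The HSP90 median was 0.93 without the 2 genes whose probes disagree, which leaves HSP90.1 alone. Leaving out each array, the median ran from -0.02 to 0.015 for organelle small heat shock proteins, from 0.01 to 0.37 for other heat shock factors and from 0.09 to 0.32 for other small heat shock proteins. Leaving out each array, HSP21 ran from -0.115 to 0.01, above 0 without array 1, and HSFA1A from -0.2825 to 0.0275, above 0 without array 2. Of 188 values of 21 heat shock genes under 9 alternatives, 182 kept direction and side of the threshold. Of the rest, 4 were MBF1C losing its call and 2 were the turns of HSP21 and HSFA1A. The 13 genes with 1 sign and an absolute mean of at least 0.5 had to keep their direction when an array was left out. Only MBF1C of the 21 was called in the main fit, and 0 genes passed with the dye term or an array left out. In those fits the uncalled genes could only keep their side of the threshold. Signal over background, which limits ratios of dim probes, is unknown here.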
